A study of Mus musculus with 4 samples.

Results

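In a list of 56285 H3K27ac peaks from mouse Th17 cells, 2180 peaks were shared by neighbouring genes. A shared peak was narrower than 5000 bp and reached within 1000 bp of an annotated end of at least 2 different protein-coding genes. The members were thus chosen by the measured width and position of the peaks, so their number and their widths are descriptions without a test. They made up 3.87% of all peaks outside the Y chromosome (56284) and 17.0% of the 12841 peaks at any gene end. Shared peaks touched 3678 of 21631 protein-coding genes, which is 17.0% of all genes, whereas 53.8% of all genes had a peak of any width at an end. Where strand was known, 1009 peaks joined starts of genes (start-start), 493 joined a start with the finish of another gene (start-finish) and 108 joined finishes (finish-finish). The other 570 touched a gene whose strand was not known here, among them all 30 shared peaks on chromosome 18.

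H3K27ac, acetylation of lysine 27 on histone H3, marks active promoters and enhancers. Neighbouring genes that point away from each other, called divergent or head-to-head, often start from a single nucleosome-poor, CpG-rich stretch of DNA that serves as promoter for both. Such bidirectional promoters are known to be frequent among housekeeping genes, above all genes of DNA repair, translation and mitochondria. The finish of a gene is here its annotated 3′ end, and a finish that has no start close by usually lacks this mark.

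The cells were naive CD4+ T cells of C57BL/6 mice, cultured for 72 h toward the Th17 fate, the interleukin-17-producing class of helper T cell. All cultures received 0.25 µg/mL anti-CD3ε, 1 µg/mL anti-CD28, 0.1 ng/mL TGF-β (per the treatment label, while the growth protocol gives a range) and 20 ng/mL IL-6. Chromatin was immunoprecipitated with an H3K27ac antibody in 2 libraries, and input DNA was sequenced in 2 libraries, 1 of each from each of 2 biological replicates. There was no other cell type or treatment, and the input of each replicate served only as control for peak calling. The deposited result is 1 list of positions for all libraries, so neither read depth nor a value for each replicate is known, and no error between replicates can be given for any value below. Ranges in percent are exact 95% intervals (Clopper-Pearson) that cover the number of genes or pairs only. The label was met by the markers: the Th17 genes Il17a, Il17f, Il23r and Ccr6 and 5 of 5 T cell genes (Cd3e, Cd3d, Cd4, Cd28, Lck) had a peak at an end, against 1 of 9 genes of other cells, the B cell gene Cd79a.

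The promoters of 6 genes at shared peaks are printed here because they show the sequence at starts of pairs described below, where 1 peak lay over both facing ends except at Npat. Each holds 300 bases of GRCm38.p6 from RefSeq, made of the 250 bases before the listed start of the gene and its first 50 bases. It is read 5′ to 3′ on the strand of the gene, and the gene starts at base 251. Capitals mark matches, on either strand, to any of 5 motifs. These are the GC box, written GGGCGG, and the CCAAT box, named by its own letters. The ETS motif is CCGGAAG. The YY1 motif is AAGATGGC, and the E-box is CACGTG. The first 5 belong to start-start pairs. The last, Tgfb1, starts downstream of the finish of B9d2. In the Npat sequence the partner Atm starts at base 32, in the Sars2 sequence Mrps12 starts at base 104, and in the Tsc2 sequence Nthl1 starts at base 198, each on the opposite strand. The listed start lies 158 bp from the outer annotated start for Npat, 49 bp for Tsc2, 36 bp for Surf2 and 11 bp for Sars2, and at it for Hspe1 and Tgfb1.
Hspe1 promoter, chr1:55087898-55088197, plus strand: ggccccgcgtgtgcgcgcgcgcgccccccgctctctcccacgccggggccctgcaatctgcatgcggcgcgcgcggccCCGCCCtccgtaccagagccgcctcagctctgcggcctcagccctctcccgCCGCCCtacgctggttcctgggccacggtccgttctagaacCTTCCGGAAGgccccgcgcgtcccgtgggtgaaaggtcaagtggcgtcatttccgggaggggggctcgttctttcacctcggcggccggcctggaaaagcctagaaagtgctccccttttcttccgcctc
Npat promoter, chr9:53536797-53537096, plus strand: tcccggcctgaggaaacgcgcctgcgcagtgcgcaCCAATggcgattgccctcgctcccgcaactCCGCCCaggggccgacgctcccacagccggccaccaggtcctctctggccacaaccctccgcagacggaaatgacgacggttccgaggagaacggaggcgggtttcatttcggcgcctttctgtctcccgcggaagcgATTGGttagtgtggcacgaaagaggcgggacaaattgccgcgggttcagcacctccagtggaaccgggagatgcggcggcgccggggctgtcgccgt
Surf2 promoter, chr2:26916158-26916457, plus strand: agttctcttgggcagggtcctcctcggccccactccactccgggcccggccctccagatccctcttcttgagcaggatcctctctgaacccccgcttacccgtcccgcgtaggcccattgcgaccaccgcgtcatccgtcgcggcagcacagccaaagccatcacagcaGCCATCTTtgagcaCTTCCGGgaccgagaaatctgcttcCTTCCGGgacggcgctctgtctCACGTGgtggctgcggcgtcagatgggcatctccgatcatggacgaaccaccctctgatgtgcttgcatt
Sars2 promoter, chr7:28741718-28742017, plus strand: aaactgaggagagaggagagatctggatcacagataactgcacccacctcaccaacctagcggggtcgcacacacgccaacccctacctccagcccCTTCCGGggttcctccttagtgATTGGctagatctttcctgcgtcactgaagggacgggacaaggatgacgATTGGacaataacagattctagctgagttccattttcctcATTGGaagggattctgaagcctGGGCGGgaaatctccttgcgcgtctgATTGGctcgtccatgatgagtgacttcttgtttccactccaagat
Tsc2 promoter, chr17:24632578-24632877, minus strand: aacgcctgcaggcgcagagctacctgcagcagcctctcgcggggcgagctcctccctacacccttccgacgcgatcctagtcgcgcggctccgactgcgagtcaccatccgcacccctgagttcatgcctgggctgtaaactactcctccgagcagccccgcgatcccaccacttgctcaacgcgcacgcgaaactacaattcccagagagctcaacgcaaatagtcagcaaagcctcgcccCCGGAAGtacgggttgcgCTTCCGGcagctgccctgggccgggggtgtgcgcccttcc
Tgfb1 promoter, chr7:25686752-25687051, plus strand: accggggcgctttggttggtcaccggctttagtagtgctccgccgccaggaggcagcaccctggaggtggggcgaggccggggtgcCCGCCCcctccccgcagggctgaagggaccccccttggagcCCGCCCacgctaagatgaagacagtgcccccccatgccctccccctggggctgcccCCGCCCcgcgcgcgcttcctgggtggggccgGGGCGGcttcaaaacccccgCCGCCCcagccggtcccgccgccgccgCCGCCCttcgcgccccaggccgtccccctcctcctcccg

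The Hspe1 promoter held 36 CpG dinucleotides and a run in which both orientations of the ETS motif overlap. Surf2 had 2 ETS motifs, a YY1 motif and an E-box within its window. Sars2 was the least CpG-rich of the 6, with 11 CpG dinucleotides, and had 4 CCAAT boxes. Tgfb1 was the most GC-rich, at 77.0% GC, with 6 GC boxes and none of the other motifs. A match of letters is a description of the sequence and not a binding site.

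Most textbook pairs had a shared peak, as did most annotated pairs. Of 18 pairs of neighbouring genes known from the literature, 14 had a shared peak narrower than 5000 bp, 2 had a wider one and 2 had none. Among all annotated pairs with starts at most 1000 bp apart, 529 of 583 divergent pairs (90.7%) had one under 5000 bp. So did 272 of 320 pairs whose 5′ parts overlap (85.0%), so the textbook pairs did not stand above all pairs. The widest shared peak of the 14 textbook pairs was at Hspd1 and Hspe1, which encode the mitochondrial chaperonin and its co-chaperonin. Their starts overlap by 95 bp, and the peak at chr1:55085686-55089980 spanned 4295 bp over both. Brca1, which encodes a protein of homologous recombination repair, and Nbr1, which encodes an autophagy receptor, start 152 bp apart and lay under 1 peak of 3522 bp at chr11:101550468-101553989. Tap1 and Psmb9 encode a peptide transporter and an immunoproteasome subunit of antigen presentation. Their starts, 226 bp apart, shared a peak of 2747 bp at chr17:34185962-34188708. Each of these peaks contained the first base of both genes.

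Further pairs with a housekeeping role had a single peak over both facing ends. Surf1, a cytochrome c oxidase assembly factor, and Surf2 overlap by 238 bp at their starts and shared 2700 bp at chr2:26914943-26917642. Mrps12, a mitochondrial ribosomal protein, and Sars2, the mitochondrial seryl-tRNA synthetase, shared a peak of 1836 bp at chr7:28741041-28742876, with starts 136 bp apart by the annotation's outer ends. Nthl1, a base excision repair glycosylase, and Tsc2, a growth regulator upstream of mTOR, start 4 bp apart and had the narrowest single peak among these pairs, at 1294 bp, chr17:24631989-24633282. Others with a single peak were Gart with Son (4223 bp), Prkdc with Mcm4 (2411 bp), Cox4i1 with Emc8 (2700 bp) and Hars with Hars2 (1749 bp). Fen1 with Tmem258 had a peak of 2196 bp over both facing ends and a fragment of 127 bp beside it.

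Atm and Npat departed from this picture. Atm encodes the kinase that signals DNA breaks, and Npat encodes the coactivator of histone genes. Their outer starts lie 61 bp apart, and 2 shared peaks met there, of 2203 bp at chr9:53534541-53536743 and 1760 bp at chr9:53536862-53538621, with 118 bp between them. The Atm start fell into that gap and the Npat start into the second peak. Ppat with Paics, 2 enzymes of purine synthesis, and Tk1 with Afmid had shared peaks of 6074 bp and 5558 bp, over the width limit. Col4a1 with Col4a2, basement membrane collagens with starts that overlap by 84 bp, had no peak at both. Acat2 and Tcp1 are annotated with 17975 bp between their nearest ends and had none either.

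**Figure D1:**
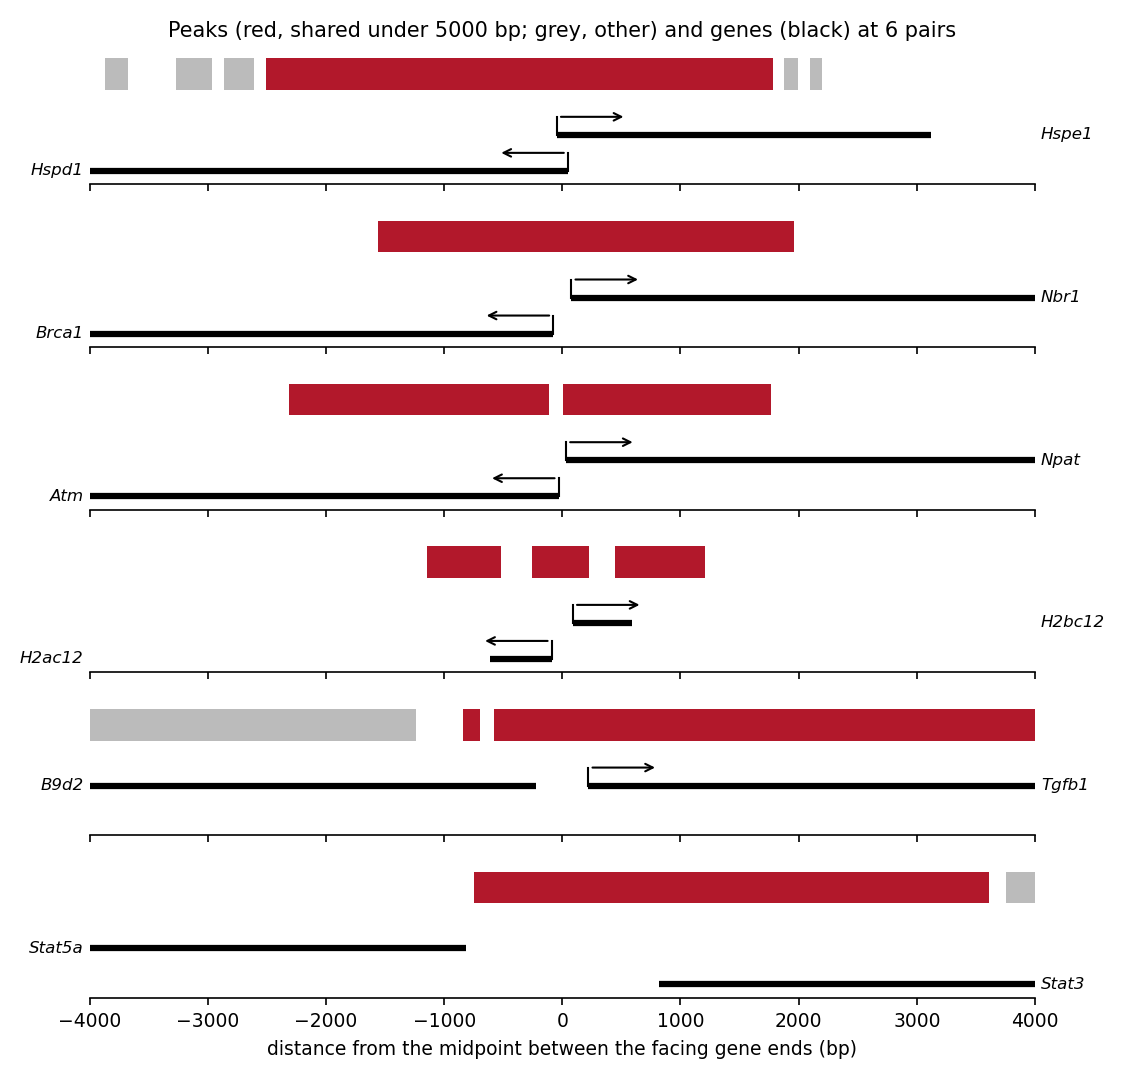
Map of 6 gene pairs in bp from the midpoint between the facing gene ends; black bars are genes, bent arrows mark starts inside the frame, red boxes are shared peaks under 5000 bp and grey boxes other peaks, with features clipped at 4000 bp. One peak lies over both starts of Brca1 with Nbr1, 2 peaks meet at Atm with Npat, 3 lie at H2ac12 with H2bc12, and at Stat5a with Stat3 the peak lies over finishes.

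The width of a shared peak went with the kind of ends it joined. Start-start peaks had a median of 2046 bp (interquartile range 1338 to 2657 bp), start-finish peaks 1708 bp (991 to 2445 bp) and finish-finish peaks 520.5 bp (252.5 to 1261.75 bp). The finish-finish median was 909 bp with windows of 500 bp, 1174.5 bp without peaks under 500 bp and 1094.5 bp after merging peaks at most 1000 bp apart. All shared peaks together had a median of 1832 bp, against 1329 bp for 10019 peaks at 1 gene only and 440 bp for 42579 peaks at no gene end. Peaks at the start of 1 gene only had a median of 1414 bp and those at the finish of 1 gene only 486 bp. The start-start and start-finish medians lay above both. The finish-finish median lay close to the 486 bp, and also to the 440 bp of peaks at no gene end. A wide peak reaches more ends by its width alone, so the choice of members favours wide peaks. Among finish-finish peaks 48.1% were narrower than 500 bp, against 5.25% of start-start peaks. Another peak lay within 1000 bp of 70.4% of finish-finish peaks and 42.3% of start-start peaks, against 64.5% of peaks at the finish of 1 gene and 65.1% of peaks at no gene end.

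**Figure D2:**
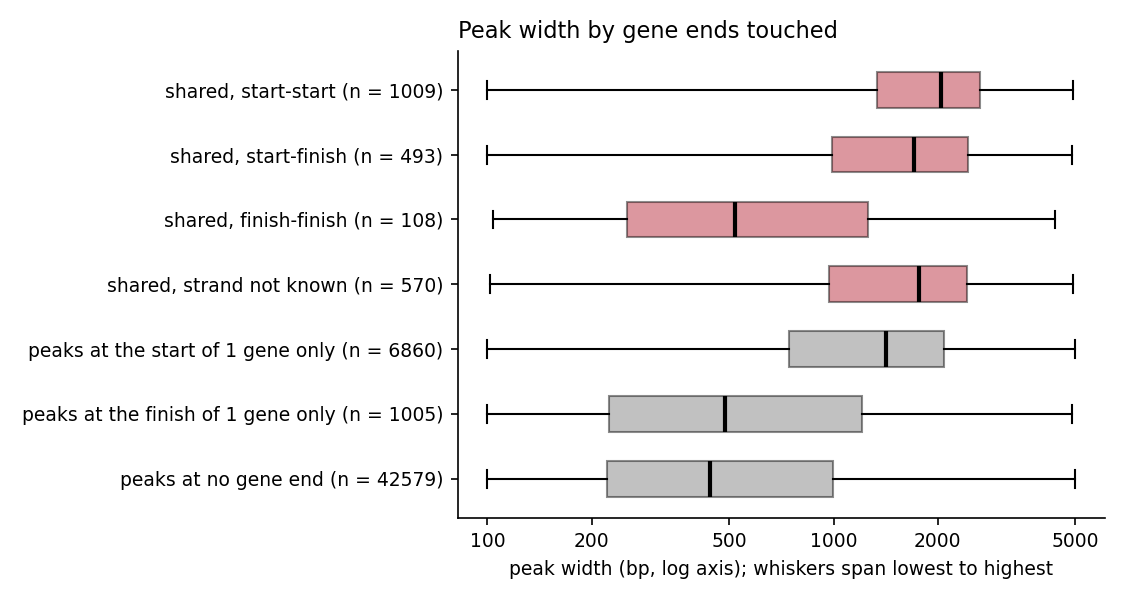
Peak width in bp on a log axis for the 4 classes of shared peaks (red) and for single-gene and other peaks under 5000 bp (grey); boxes give the interquartile range, the line the median and whiskers the lowest and highest width. Start-start peaks are widest, with a median of 2046 bp. Finish-finish peaks, with 520.5 bp, are close to peaks at the finish of 1 gene (486 bp) and at no gene end (440 bp).

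The limit of 5000 bp cut through a continuous range. Among the shared peaks just inside were those at Gm52009 with Cdca4 (4930 bp) and Tut1 with Eef1g (4914 bp). Just outside were Lama3 with Ttc39c (5011 bp), Fuz with Ap2a1 (5034 bp) and Tarbp2 with Map3k12 (5050 bp). In all, 143 shared peaks were at or over the limit. Most members were simple: 2079 touched 2 genes, 98 touched 3 and only 3 touched 4 or more, and 1927 touched exactly 1 end of each of 2 genes. The peak with the most genes, 2357 bp at chr17:47687178-47689534, touched Tomm6, Usp49, Frs3, Prickle4 and the predicted gene Gm20517. The next, 3340 bp at chr17:24894071-24897410, lay at Eme2, Mrps34, Nme3 and Mapk8ip3. One of 1668 bp on chromosome 19 touched Plcb3, Ppp1r14b, Fkbp2 and a predicted gene. Those with 3 genes and the greatest width were at Gm10840, Limd2 and Map3k3 (4889 bp) and at Ptpn6, Grcc10 and Atn1 (4807 bp). Ptpn6 encodes SHP-1, a phosphatase that dampens antigen receptor signalling. Only 79 members (3.62%) depended on a predicted gene with a Gm symbol.

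Divergent starts made up most of the start-start class. Of its 1009 members, 626 joined divergent genes at a median distance of 109 bp, 334 joined genes whose 5′ parts overlap and 49 joined starts on the same strand. The peak contained the first base of both genes in 456 of the 626 divergent members (72.8%) and in 263 of the 334 overlapping ones (78.7%). The 88 divergent members over neither start were counted through the windows only, as at Pdzd11 with Kif4, a kinesin of mitosis, where the peak was 107 bp wide and lay beside another shared peak of 1741 bp. The other peaks at the narrow end of the class, at Pianp with Cops7a (100 bp) and Tmsb15b1 with Tmsb15l (106 bp), also contained neither first base. The wide end had Tmem209 with Ssmem1 (4913 bp over starts 4 bp apart), Mettl23 with Jmjd6 (4877 bp) and Tor1aip2 with Tor1aip1 (4839 bp), whose products activate torsin.

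Pairs with the closest starts are given as single examples. The divergent starts of Rprd1b and Tti1 are annotated 0 bp apart and shared 3338 bp. Kctd21 and Usp35, also 0 bp apart, had a peak of 1685 bp over both starts and a second of 512 bp at 1 side. Capza1, an actin-capping subunit, and St7l are 1 bp apart and shared 3896 bp. Tcta and Rhoa, a small GTPase of actin dynamics, are 1 bp apart and shared 3824 bp. Smpd2 and Ppil6, also 1 bp apart, shared only 1074 bp. Divergent members with starts at most 100 bp apart had a median width of 1959 bp, against 2384 bp at 1001 to 2000 bp. The wide examples thus do not stand for close starts in general.

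Peaks over both divergent starts reached well into both genes. In the 456 of them, the shorter reach into a gene had a median of 833.5 bp (624.5 to 1052.25 bp) and the longer reach 1259 bp (956 to 1582 bp). At least 500 bp into both genes was reached by 380 of 456 (83.3%), and in 116 (25.4%) the longer side was at least 2 times the shorter. In 4901 peaks over the start of 1 gene only, the reach was 1086 bp into the gene (784 to 1534 bp) and 535 bp before its start (269 to 833 bp). The shorter and longer reach are the lower and higher of 2 values in each peak. A median for a single side, such as 1086 bp, therefore tends to lie between theirs, and no likeness is read from it. The 456 divergent peaks had a median width of 2270.5 bp, against 1675 bp for the 4901 single-gene peaks. The first set had to contain 2 starts, and the second 1 start with no second gene touched. The choice alone thus favours wider peaks in the first set.

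Independently of the peaks, all annotated pairs of ends at most 1000 bp apart were asked whether 1 peak of any width contained both. This held for 478 of 583 divergent pairs (82.0%, interval 78.6 to 85.0%) and for 264 of 320 pairs with overlapping 5′ parts (82.5%, 77.9 to 86.5%). It held for 153 of 457 tandem pairs, in which a finish lies upstream of a start on the same strand (33.5%, 29.2 to 38.0%). It held for 16 of 433 convergent pairs of finishes (3.70%, 2.13 to 5.93%) and for 11 of 293 pairs with overlapping 3′ parts (3.75%). Starts on the same strand lay under 1 peak in 32 of 45 pairs (71.1%). The orientations also differed in distance, with a median of 101 bp for divergent, 450 bp for tandem and 375 bp for convergent pairs. A shared peak under the width limit lay in the windows of 529 of the 583 divergent pairs (90.7%). Only 52 divergent pairs (8.92%) had neither start in a peak, against 407 convergent pairs (94.0%).

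Among start-start pairs, the share was lower at larger distances. With starts at most 100 bp apart, 264 of 290 divergent pairs (91.0%) lay under 1 peak. The share was 78.2% at 101 to 250 bp, 75.6% at 251 to 500 bp, 47.6% at 501 to 1000 bp and 23.4% at 1001 to 2000 bp. Genes with overlapping 5′ parts had 95.4% at up to 100 bp and 40.0% at 1001 to 2000 bp. Tandem pairs had 43.1% at up to 100 bp, 52.6% at 101 to 250 bp and 7.59% at 1001 to 2000 bp. Convergent pairs had 1.27% to 5.62% over the 5 distances, with intervals that overlap. At each of the 5 distances, the divergent share was above the tandem share.

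**Figure D3:**
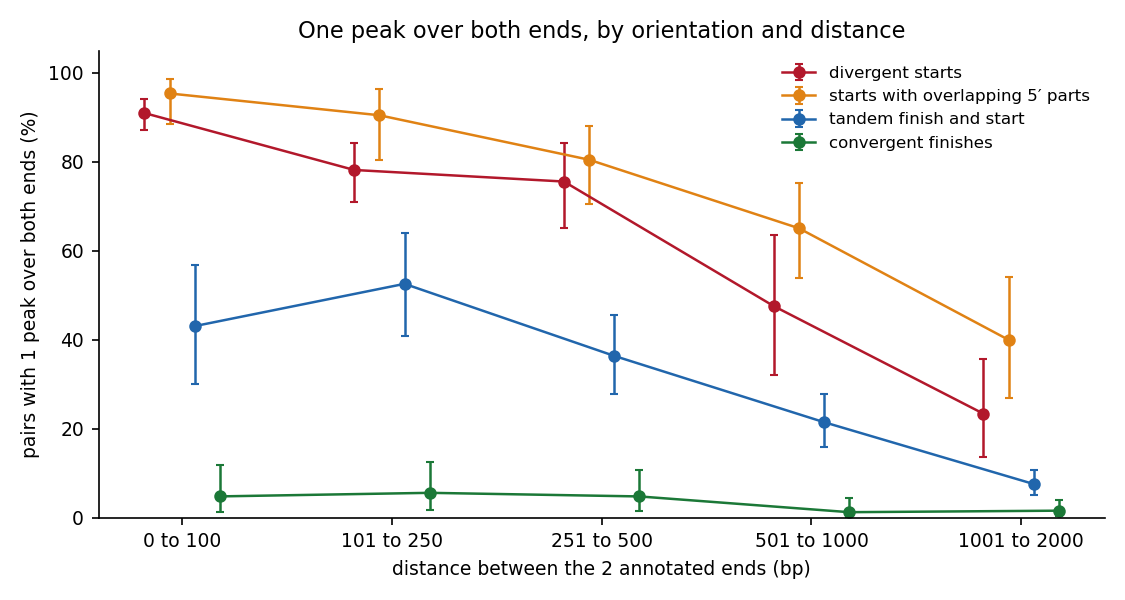
Share of annotated gene pairs (%) with 1 peak over both ends, by the distance between the ends in bp, for 4 orientations; points are shares and bars exact 95% intervals. Divergent pairs have 91.0% at up to 100 bp and 23.4% at 1001 to 2000 bp, and convergent finishes at most 5.62%.

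A partner gene went with a higher share of acetylated starts. Of 1158 starts with a divergent partner within 1000 bp, 1016 lay in a peak (87.7%, 85.7 to 89.6%). Such starts come in pairs that often lie under 1 peak, so this interval counts dependent starts as separate and is too narrow. Of 637 starts with a partner that overlaps in its 5′ part, 551 lay in a peak (86.5%). Starts with only a tandem finish upstream were in a peak in 251 of 446 cases (56.3%). Of 12116 solitary starts, with no other gene end within 5000 bp, 4492 lay in a peak (37.1%, 36.2 to 37.9%), and over all 17274 starts of known strand the share was 45.2%. Olfactory and vomeronasal receptor genes, which are silent in T cells, were left out as a check. Without them the share was 87.9% with a divergent partner and 41.2% for solitary starts.

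**Figure D4:**
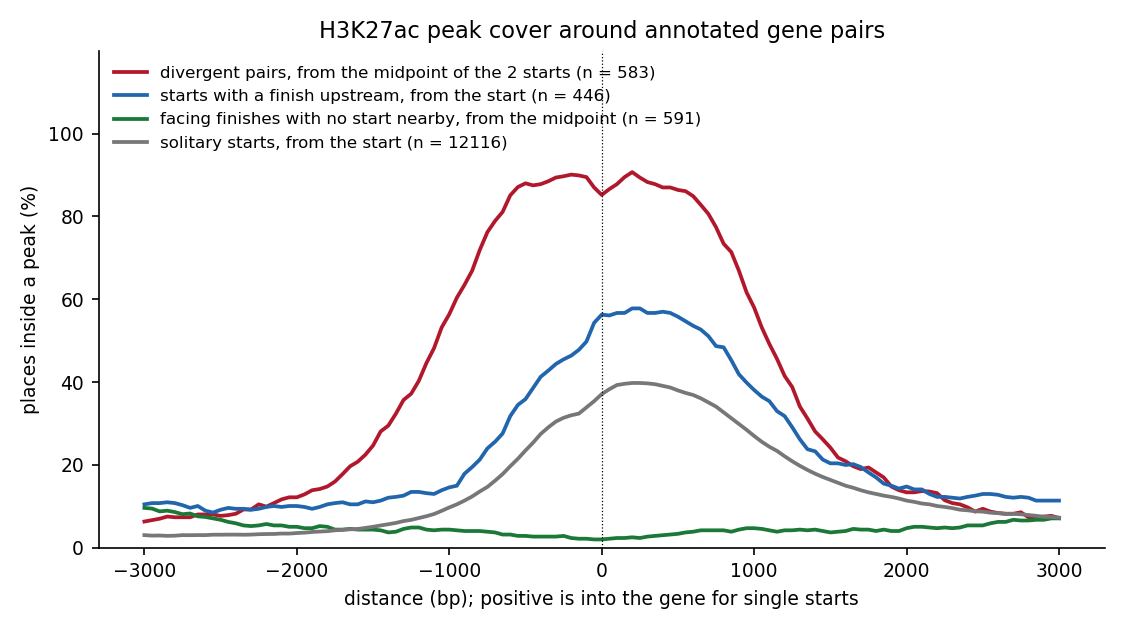
Share of places (%) inside a peak by distance in bp, for 583 divergent pairs, 446 starts with a finish upstream, 591 pairs of finishes with no start within 3000 bp and 12116 solitary starts. Divergent pairs, which have a gene on each side, show a broad plateau with a shallow dip to 85.2% at the midpoint. Single starts are covered more on the side of the gene.

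Around the midpoint of divergent pairs, 88.0% were covered 500 bp to the left, 86.4% 500 bp to the right and 85.2% at the midpoint. Every divergent pair has a gene on each side, so similar cover on both sides, taken over pairs, follows from their layout. Single peaks can still be uneven. Solitary starts were covered in 23.5% of cases 500 bp before the start and 38.0% at 500 bp inside the gene. Tandem starts had 35.9% before and 55.8% inside, with the same lean toward the gene as a solitary start. Pairs of finishes with no start within 3000 bp were covered at 12 of 591 midpoints (2.03%) and at 28 of 591 places 1000 bp to the right (4.74%).

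At 15 divergent pairs, in 14 places, each start lay in a peak of its own. The gap between the peaks was 76 to 284 bp, with a median of 115 bp, and the starts were 143 to 547 bp apart, so that the gap fell between them. The widest such peaks were at Tbc1d10b, a Rab GTPase-activating protein, and Mylpf, the fast skeletal muscle myosin light chain, with 2652 and 2042 bp and 125 bp between them. Parp3, a DNA break response enzyme, and Rrp9, a component of the U3 snoRNP of ribosome synthesis, had 2350 and 1166 bp with 158 bp between them. Prr11 and Ska2, a spindle and kinetochore protein, had 1037 and 1409 bp with 284 bp between them. Med29 of Mediator and Paf1 of the PAF elongation complex had 1031 and 1208 bp with 133 bp between them. Rfxank, a regulator of MHC class II genes, had 1026 bp, and its neighbour Borcs8, with which the model Gm45929 shares its start, had 1463 bp, with 110 bp between them.

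Of the 52 divergent pairs with neither start in a peak, 25 had the nearest peak over 10000 bp away and 18 had one within 1000 bp. The first 5 by name fell into both kinds. Elapor1 with 1700013F07Rik lay 16335 bp from the nearest peak, Gm4779 with 8030474K03Rik 22282 bp and Acp4 with Gm15517 13372 bp. Fam90a1b with Apoo, a mitochondrial cristae protein, lay only 110 bp from one, and Tango2 with Arvcf 68 bp. The annotated outer start matched a start in the promoter table exactly for 60.0% of genes and within 100 bp for 77.1%, which limits how finely a base can be called covered.

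The histone gene clusters held several pairs with a narrow peak at the starts and separate peaks beside it. Replication-dependent histone genes supply histones in S phase, are short and lack introns, and H2A and H2B genes often stand in divergent pairs. Of 57 such genes, 42 (73.7%) were at a shared peak, against 17.0% of all genes, and 71.9% had the end of another gene within 1000 bp, against 25.1% of all genes. At 6 of 7 divergent H2A with H2B pairs with a shared peak, a narrow central peak of 432 to 592 bp lay over both starts, and a separate peak lay beyond each side. Among all 583 divergent pairs, counting peaks of any width in the windows of both starts, 468 (80.3%) had 1 such peak, 73 (12.5%) had 2, 6 (1.03%) had 3 or more and 36 had 0. All 6 pairs with a central peak over both starts and a peak on each side were pairs of histone genes. A side peak counted only within 1000 bp of both starts, so a pair with a wide central peak could not show this pattern. The divergent pairs H2bc1 with H2ac1 and H2bc23 with H2ac23 had neither start in a peak. The pattern of 3 peaks was noticed in the values and not named in advance.

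At H2ac12 with H2bc12 on chromosome 13, with starts 178 bp apart, the central peak was 483 bp wide and the gaps to its neighbours were 256 and 223 bp. At H2bc7 with H2ac7 the central peak was 432 bp wide, with gaps of 285 and 246 bp. At H2ac11 with H2bc11 it was 592 bp wide, with gaps of 234 and 109 bp. The seventh pair, H2ac15 with H2bc15, had a peak of 1900 bp over both starts and another 263 bp away. Over the 6 pairs, the 12 gaps were 109 to 285 bp, with a median of 227 bp, and all 12 lay wholly inside the annotated genes. The coding parts of these genes are nearly identical between copies, so reads there can fit several places, and how such reads were counted is not given in the sources used here. Its part in the gaps was not tested. The widest shared peaks of the family were at H2bc3 with H2ac4 (4247 bp) and at H4c4 with H2bc6 (4159 bp).

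Start-finish peaks lay mainly at the start. Of the 493, 427 were tandem, with a median distance of 723 bp between finish and start. In these 427, the peak contained both ends in 136 (31.9%), the start only in 209, the finish only in 22 and neither in 60. Tandem peaks over the start reached 1117 bp into the downstream gene and 686 bp before its start, against 1086 bp and 535 bp for peaks at 1 gene. Among the 457 annotated tandem pairs, the start was in a peak in 261 (57.1%) and the finish in 165 (36.1%), against 4.40% of all finishes of known strand. The share of finishes was 50.7% where the start was at most 250 bp away and 24.0% at 501 to 1000 bp, whereas the share of starts was 55.9% and 60.0%. An acetylated finish was thus found where it lay close to the start of the next gene.

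Tgfb1, the cytokine gene on which Th17 differentiation depends, had the fourth widest start-finish peak. It spanned 4699 bp at chr7:25686200-25690898 and contained the Tgfb1 start and the finish of B9d2, a gene of the ciliary transition zone. The widest lay at the start of Gapdh, the glycolytic enzyme, and the finish of the condensin gene Ncapd2 (4880 bp). Hnrnpul1 with Axl, a receptor tyrosine kinase, had 4849 bp. Rpl13a with Flt3l, a cytokine of dendritic cell development, had 4701 bp. Rsbn1 with Ptpn22, a phosphatase that limits T cell receptor signalling, had 4678 bp, over the start of Rsbn1 and short of the finish of Ptpn22. The narrowest were Mrps23 with Cuedc1 (100 bp), Rab4b with Mia (103 bp) and Spef1l with Adam8 (104 bp), none of which contained both ends.

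Finish-finish peaks were few and small. Only 14 of 108 (13.0%) contained both finishes, 22 contained 1 and 72 (66.7%) neither, so most lay beside the finishes and were counted through the window. Their number depended on the window, with 53 such peaks for windows of 500 bp and 240 for windows of 2500 bp, and it was 56 without peaks under 500 bp. In 48 of 108 (44.4%), the start of 1 of the joined genes was within 5000 bp of the peak, and only 5 lay within 1000 bp of any listed start. Where no start lay within 3000 bp, an end was in a peak in 15 of 591 facing pairs (2.54%). Solitary finishes were in a peak in 233 of 11186 cases (2.08%), against 4.40% of all finishes.

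The widest finish-finish peak was at 2 genes of cytokine signalling. Stat3, which transmits the IL-6 and IL-23 signals of Th17 cells, and Stat5a, which transmits IL-2, end facing each other with 1637 bp between their finishes. The peak of 4365 bp at chr11:100885237-100889601 contained the finish of Stat3 and not that of Stat5a. It lay 49993 bp from the start of Stat3 and 25886 bp from that of Stat5a. Exosc8 with Supt20 had 4057 bp, 5314 bp from the start of Exosc8, an exosome subunit. Rpl27a with Denn2b had 3960 bp, Ccdc84 with Rps25 3700 bp and Fth1, the ferritin heavy chain, with Best1 3515 bp. In these last 3 the start of a short gene, Rpl27a, Rps25 or Fth1, was 3729, 2565 and 1131 bp from the peak by its outer annotated end. The Fth1 with Best1 peak lay over a start listed in the promoter table, 0 bp away. Among these 5, Stat5a with Stat3 alone had no outer start of its genes within 10000 bp. The narrowest were Tuba4a with Stk16 (104 bp), Rpl36a with Gla (112 bp) and Dnajc3 with Uggt2 (118 bp).

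Gene lists differed in how many of their genes were at shared peaks, and all are read against 17.0% of all genes. Of 26 chaperone genes 14 (53.8%) were, 11 of them at start-start peaks, with Hsp90b1 of the endoplasmic reticulum beside Ttc41 (4785 bp) and Dnaja1 beside the DNA repair gene Aptx (3475 bp). Mitochondrial ribosomal proteins had 39 of 78 (50%), as at Mrpl34 with Abhd8 (3860 bp), Mrps6 with Slc5a3 (3580 bp) and Mrpl18 with the chaperonin gene Tcp1 (3284 bp). RNA polymerase subunits had 13 of 28 (46.4%), as at Polr1d with Lnx2 (4049 bp) and Polr2h with Clcn2 (3146 bp). DNA repair had 21 of 46 (45.7%), among them Xpc of nucleotide excision repair with Tmem43 (3045 bp). tRNA synthetases had 16 of 36 (44.4%), as at Qars with Qrich1 (3887 bp, start-finish) and Ears2 with Ubfd1 (3403 bp, start-start).

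Subunits of the respiratory chain and ATP synthase had 35 of 81 genes (43.2%) at shared peaks, 21 of them at start-start peaks. At Atp5b with Baz2a the peak (4660 bp) lay over the start of Baz2a and beside the finish of Atp5b. Start-start peaks lay at Uqcrh with Lrrc41 (3601 bp) and at Atp5j with Gabpa (3431 bp). Gabpa itself encodes the ETS factor known as nuclear respiratory factor 2. Cytosolic ribosomal proteins had 34 of 85 (40.0%), but only 12 at start-start peaks. Examples were Rpl24 with Zbtb11 (4663 bp, start-finish) and Rpl12 with Lrsam1 (4441 bp, start-start). Rpl7a shared 4531 bp with Med22 and Surf1. DNA replication had 14 of 39 (35.9%), 8 of them at start-start peaks. These included Mcm7, of the replicative helicase, with Ap4m1 (2599 bp) and Cdc45 with Ufd1 (2507 bp). Pcna, the sliding clamp, with Tmem230 (2607 bp) was start-finish, and at Pole with Pxmp2 (3189 bp) a strand was not known. Proteasome subunits had 11 of 39 (28.2%), as at Psmb1 with Tbp, the TATA-binding protein (3676 bp). Purine and pyrimidine synthesis had 5 of 23 (21.7%), near the share over all genes, among them Impdh2 with Ndufaf3 and Dalrd3 (4761 bp) and Gmps with Slc33a1 (2364 bp). Zinc finger genes named Zfp had 50 of 397 (12.6%), among them Zfp609 with Trip4 (4375 bp). Most of these lists also had more close neighbours than all genes, at 58.7% for DNA repair and 56.4% for mitochondrial ribosomal proteins, against 25.1% of all genes with another gene end within 1000 bp. Read over genes with such a neighbour, 74.1% of DNA repair genes and 88.6% of mitochondrial ribosomal protein genes were at a shared peak, against 58.6% of all genes. Read over genes with any gene-end peak, the share was 56.0% for chaperones, 51.3% for mitochondrial ribosomal proteins, 47.7% for DNA repair and 38.9% for DNA replication, against 31.6% of all genes. On that reading, proteasome subunits (30.6%) and purine and pyrimidine synthesis (21.7%) did not stand above all genes.

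T cell genes did not stand above the 17.0% of all genes. Of 25 genes of the Th17 program, 22 had a peak at an end and 3 (12%) were at a shared peak: Tgfb1 and Stat3, described above, and Nfkbiz with Nxpe3 (3343 bp), an IκB family member of the interleukin-17 response. None of the 3 was a start-start peak of known strand. Of 24 T cell identity genes, all had a peak at an end and 3 (12.5%) were at a shared peak. These were Lat, the adaptor of the T cell receptor, with Spns1 (3368 bp), Cd5 with Vps37c (2192 bp, finish-finish) and Cd4 with Gpr162 (1035 bp). Over genes with any gene-end peak, the shared share was 13.6% for the Th17 program and 12.5% for T cell identity, against 31.6% of all genes. Only 12% of Th17 genes had another gene end within 1000 bp, against 25.1% of all genes.

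Genes of other tissues had a peak at an end in few cases. The shares at a shared peak rest on few genes and are read against 31.6% of all genes with a gene-end peak. Of 22 liver and muscle genes, 3 had a gene-end peak and all 3 were at a shared one: Mylpf with Tbc1d10b, described above, Apoa2, an apolipoprotein of the liver, with Tomm40l (2083 bp), and Actn3, the fast muscle α-actinin, with Zdhhc24 (1329 bp). Of 15 B cell genes, 3 had one, and Vpreb1, the surrogate light chain, shared 1821 bp with the topoisomerase gene Top3b. Of 18 myeloid genes, 2 had one, and Cd68 shared 2917 bp with Mpdu1. That peak lay over the Mpdu1 start and short of the Cd68 finish, and another shared peak of 819 bp lay over the Cd68 start. Of 1110 olfactory receptor genes, 12 had a gene-end peak, and 2 of these (16.7%), Olfr1392 and Olfr1393, shared 1307 bp.

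**Figure D5:**
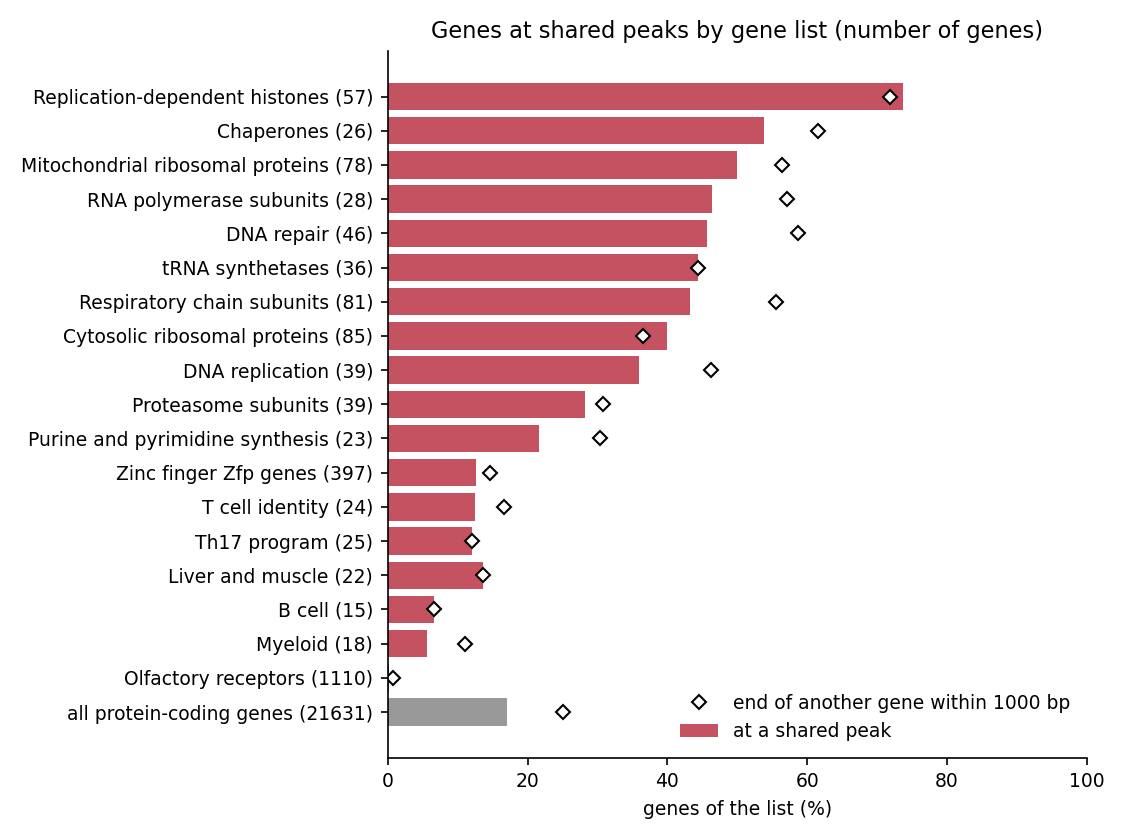
Percent of the genes of each list at a shared peak (bars) and with the end of another gene within 1000 bp (diamonds), with the number of genes in brackets and all protein-coding genes at the bottom. Histone genes reach 73.7% and Th17 program genes 12%, against 17.0% of all genes.

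Promoter sequence was compared over the 300-base windows of RefSeq. Genes at divergent shared peaks (1086 windows) had a median GC content of 61.3% and a median of 23 CpG dinucleotides, with an observed over expected CpG ratio of 0.842. Genes at a peak of their own start only (5943 windows) had 61.3%, 21 and 0.775, genes with no gene-end peak (7847 windows) 49.7%, 4 and 0.241, and all 17274 promoters 56.3%, 14 and 0.586. Promoters at divergent shared peaks thus had the same median GC content as those at single-gene start peaks, and a slightly higher CpG ratio. In 466 of 626 divergent members (74.4%) the windows of both genes overlap, so many bases count for both.

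Single motifs differed more. None of the motifs searched contains another, and each was searched on both strands. The ETS motif CCGGAAG was in 28.8% of promoters at divergent shared peaks, 25% at peaks of overlapping 5′ parts and 27.1% at tandem shared peaks, against 17.5% at single-gene start peaks and 12.1% of all promoters. The YY1 motif AAGATGGC was in 9.21% at divergent shared peaks, 4.35% at peaks of overlapping 5′ parts and 5.99% at tandem shared peaks, against 4.41% at single-gene start peaks and 3.23% of all. The CCAAT box was in 44.2% at divergent shared peaks, 34.0% at peaks of overlapping 5′ parts and 39.8% at tandem shared peaks. It was in 39.3% at single-gene start peaks and 39.6% of all. The GC box GGGCGG was in 67.4% at divergent shared peaks, 60.6% at peaks of overlapping 5′ parts and 67.7% at tandem shared peaks. It was in 67.8% at single-gene start peaks and 46.9% of all. The TATA box TATAAA was in 5.62% at divergent shared peaks, against 6.85% at single-gene start peaks and 13.4% of all. The NRF1 motif GCGCATGC (6.45%, 6.29% and 3.64%), the CRE TGACGTCA (3.78%, 3.58% and 2.36%) and the E-box CACGTG (11%, 10.5% and 8.01%, each for divergent shared, single-gene start and all promoters) lay close together in the first 2 sets. The ETS motif thus had a higher share in all 3 classes of shared peaks than at single-gene start peaks, and the YY1 motif mainly in the divergent class. None of these differences was tested.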

How the data were processed

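H3K27ac ChIP-seq and input libraries came from 2 biological replicates of cultured Th17 cells. The submitters' processing notes name Bowtie2 2.3.4.1, SAMtools 1.9, MACS2 2.2.6, deepTools (no version) and the build GRCm38 (mm10). Per the design text of the series, the authors called peaks with MACS and took the input of each replicate as control. Not given in the sources used here: thresholds, filters and any pooling of replicates. The authors' deposited list holds chromosome, start, end and name of each peak, with no score, signal or p-value, so there is no depth or replicate value. The names share a prefix that includes WT_Ddx5, which no label explains, so no genotype is drawn from it. Running numbers in the names reach 71449, and 15164 of them are absent. Starts were taken as counted from 0, since the narrowest peaks, 788 of them, are then exactly 100 bp wide. Positions are given counted from 1.

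Annotated ends of 21631 protein-coding genes (autosomes and X) were read from RefSeq's GRCm38.p6 table. Strand came from the RefSeq promoter table, which matched 17274 genes (79.9%) and 0 on chromosome 18. A gene's start is its outer annotated end. A peak counted at an end when at least 1 bp lay within 1000 bp of it. Starts of at least 2 genes made a peak start-start whatever else it touched, and the closest such ends stand for it.

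The plan held no test, and none was run: shares and medians are given beside the rest of the list, all genes or all promoters. The members, gene lists, textbook pairs and alternatives were chosen with earlier results of these data known. Named are the textbook pairs, the 5 widest and 3 narrowest peaks of each class, those with the most genes, those beside the width limit, the closest divergent starts, divergent pairs with separate or no peaks, and up to 4 genes per list by width. A few items that the rule selects are not reported here. The histone pairs named beyond these were chosen after their values were seen. The classification was tested on simulated data and classed 350 of 350 peaks at 650 genes as made. Values were computed in Python 3.11.15 with pandas 2.3.3 and numpy 2.4.6, intervals with scipy 1.17.1 and figures with matplotlib 3.10.9. Alternatives varied the window, the width limit, peak merging, a minimum width, the gene models and the distance between starts.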

Additional observations from a re-analysis of the deposited data

How the results depend on the processing

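The list has no value for each library, so no replicate could be left out. No paired analysis was possible because the values come from 1 list for all libraries and from no test. Depth is unknown, and the base at which a start is called covered rests on the annotated outer end. Of 48 alternative values of the main counts and shares, 36 differed from the reported ones by less than 1.5 times for counts, or by less than the counting interval for shares, and 12 moved further. Finish-finish peaks numbered 108 as reported, 53 with windows of 500 bp, 240 with windows of 2500 bp, 56 without peaks under 500 bp and 62 after merging peaks at most 1000 bp apart. With windows of 2500 bp, shared peaks numbered 3656 and start-finish peaks 1004. The share of divergent pairs with a shared peak at both starts, 90.7% as reported, was 84.9% after merging, 74.4% under a width limit of 3000 bp, 93.8% with no limit and 86.6% for starts up to 2000 bp apart. The share with 1 peak over both start bases, 82.0% as reported, was 90.2% after merging and 76.2% for starts up to 2000 bp apart. Of 18 alternative median widths by class, 13 lay outside the interval of the reported median, and those of finish-finish peaks, 520.5 bp as reported, lay between 461 and 1174.5 bp. Merging joins peaks and pushes some over 5000 bp, and a lower limit removes peaks, by construction. The alternatives for this last share, and those on gene models and listed starts, were chosen after seeing the data.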

Other observations

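Shared peaks were spread unevenly over the chromosomes. There were 16.6 members per 100 protein-coding genes on chromosome 19, 14.9 on chromosome 17 and 13.5 on chromosome 11, against 5.38 on chromosome X and 5.87 on chromosome 18. At 218 of 1941 gene pairs, more than 1 shared peak was found. Together the members covered 4.1 Mb, or 6.34% of the length of all peaks, and 8.81% of them also lay within 1000 bp of an end of a gene not annotated as protein-coding, with 14.8% of start-finish peaks and 6.05% of start-start peaks.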
